A study of Mus musculus with 24 samples.

Results

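Mouse macrophages grown from induced pluripotent stem cells (iPSC), reprogrammed cells that can form any lineage, were compared at day 6 and day 3 of co-culture. The comparison used 6 of the 24 RNA-seq libraries of the series, chosen by their titles: 3 labelled as iPSC-derived, co-cultured, day 6, and 3 labelled as iPSC-derived, co-cultured, day 3. Another 6 libraries were iPSC-derived macrophages at day 12 in co-culture and at day 0 without it, and 12 were bone marrow-derived macrophages at the same 4 time points. The labels give no genotype, strain, sex or age, do not name the partner cells of the co-culture, and call the replicates independent without saying what was independent. P-values therefore measure the spread between these libraries. The text of the series calls the co-cultured cells microglia-like by their names, so the comparison asks which genes still moved after the first 3 days of co-culture. The 22 genes of the general macrophage list were all detected on both days. Levels are given in CPM, read counts scaled to a common library size. This list summed to 24290 to 27595 CPM at day 6 and 40308 to 41198 CPM at day 3. Every gene of the 30-gene microglia list had reads at day 6, though Siglech had only 5 counts and Sall1 28. Upk1b of that list had no reads at day 3. Detection alone cannot bear out the microglia-like label. The 6 libraries held 7945459 to 10799515 counted read pairs each.

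Microglia are the resident macrophages of the brain. They clear debris by phagocytosis and digest it in lysosomes, acidic compartments filled with hydrolases and their cofactors, and they can present peptides on class I molecules of the major histocompatibility complex (MHC). Macrophages placed beside brain cells are known to take up part of the microglial gene set, which includes the purinergic receptor P2ry12, the surface protein Tmem119 and the fractalkine receptor Cx3cr1.

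The stretches of DNA upstream of 4 of the genes that differed are shown because the lysosomal, class I and matrix genes described below have well-known motifs in their promoters. Each holds the 250 bases before the RefSeq gene start (GRCm38.p6), 5′ to 3′ on the gene's strand, with matches to 1 motif in capitals, searched on both strands. The lysosomal genes Ctsl (chr13:64370521-64370770, minus strand) and Psap (chr10:60277378-60277627, plus strand) were searched for CACGTG, the core of the element read by TFEB, a factor that controls lysosomal genes. H2-D1 (chr17:35262844-35263093, plus strand) was searched for the palindromic kappaB motif of 11 bases known from class I promoters, read by NF-kappaB, and Ccn1 (chr3:145649986-145650235, minus strand) for CATTCC, the motif of TEAD factors.
Ctsl: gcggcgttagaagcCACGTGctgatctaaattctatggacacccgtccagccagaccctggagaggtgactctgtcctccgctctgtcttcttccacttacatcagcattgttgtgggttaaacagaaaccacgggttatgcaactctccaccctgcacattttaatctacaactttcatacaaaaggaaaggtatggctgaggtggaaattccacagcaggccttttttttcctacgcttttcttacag
Psap: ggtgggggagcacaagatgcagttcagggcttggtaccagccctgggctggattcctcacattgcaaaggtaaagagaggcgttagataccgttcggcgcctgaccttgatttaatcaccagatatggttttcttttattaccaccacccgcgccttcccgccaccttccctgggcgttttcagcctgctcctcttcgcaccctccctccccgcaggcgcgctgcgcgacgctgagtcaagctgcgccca
H2-D1: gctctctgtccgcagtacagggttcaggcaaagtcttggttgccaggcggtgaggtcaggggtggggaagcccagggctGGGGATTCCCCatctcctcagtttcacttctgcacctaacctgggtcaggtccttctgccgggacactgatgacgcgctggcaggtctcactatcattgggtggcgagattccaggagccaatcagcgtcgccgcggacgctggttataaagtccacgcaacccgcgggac
Ccn1: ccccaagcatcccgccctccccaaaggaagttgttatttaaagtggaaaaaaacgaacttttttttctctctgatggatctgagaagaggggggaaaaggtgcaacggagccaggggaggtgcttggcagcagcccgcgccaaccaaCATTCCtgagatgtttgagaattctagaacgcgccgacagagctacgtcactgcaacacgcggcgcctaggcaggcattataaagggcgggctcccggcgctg

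Ctsl held CACGTG once, beginning 236 bases before the start, and the Psap window did not hold these letters. The kappaB motif began 171 bases before the H2-D1 start and CATTCC 103 bases before the Ccn1 start. Among all windows of the RefSeq table, 6.02% held CACGTG, 0.0304% held the kappaB motif and 12.6% held CATTCC. Counted by gene, 11 of 31 lysosomal genes with a window held CACGTG, against 6.86% of all genes, and 3 of 14 class I genes held the kappaB motif, against 0.0333% of all genes. A match describes the letters and is no sign that a factor was bound. The RefSeq start lies 214 bases from the gene start of the annotation used for counting in Ctsl, 364 bases in H2-D1, 4 bases in Ccn1 and 1 base in Psap.

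Between day 6 and day 3, 11 of 13530 genes tested differed at an adjusted p below 0.05, or 0.0813%. Of these, 5 were higher at day 6 (Ccnd2, Itm2a, Ccn1, Peg3 and H19; 0.037%) and 6 were lower (Psap, Ctsl, H2-D1, Ptafr, Pcyt1a and Atp2b1; 0.0443%). In each of the 11 genes the 3 day 6 values did not overlap the 3 day 3 values. Such a gap without overlap was common over all genes: 8.95% of the genes tested were higher in every day 6 library and 9.04% were lower in every day 6 library. At an unadjusted p below 0.05, 704 genes were higher and 754 lower at day 6. The test was edgeR's quasi-likelihood test on the 12 iPSC-derived libraries, with Benjamini-Hochberg adjustment over all genes tested. The count of calls rested on single libraries. None of the 11 genes passed when replicate 1 of day 6 was left out (adjusted p of 0.0889 to 0.17), replicate 3 of day 6 (0.0563 to 0.141) or replicate 1 of day 3 (0.115 to 0.185). With replicate 2 of day 3 left out, Psap and Ptafr passed and the others had adjusted p up to 0.137. With replicate 2 of day 6 left out, the 10 genes other than Atp2b1 (adjusted p = 0.0523) passed, and with replicate 3 of day 3 left out, the 10 other than H2-D1 (adjusted p = 0.0525). When the 12 bone marrow-derived libraries were added to the same fit, 340 of 15000 genes passed (2.27%), 159 higher and 181 lower, and all of the 11 were among them. Those libraries were kept out of the main test because an earlier look at these data found a larger spread between iPSC-derived replicates. The 24-library fit judges the change against a spread shared by both sources. Its biological coefficient of variation, a measure of that spread, was 0.338, against 0.388 in the 12-library fit. DESeq2 on the 12 libraries called 277 genes, also with all 11 among them.

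**Figure D1:**
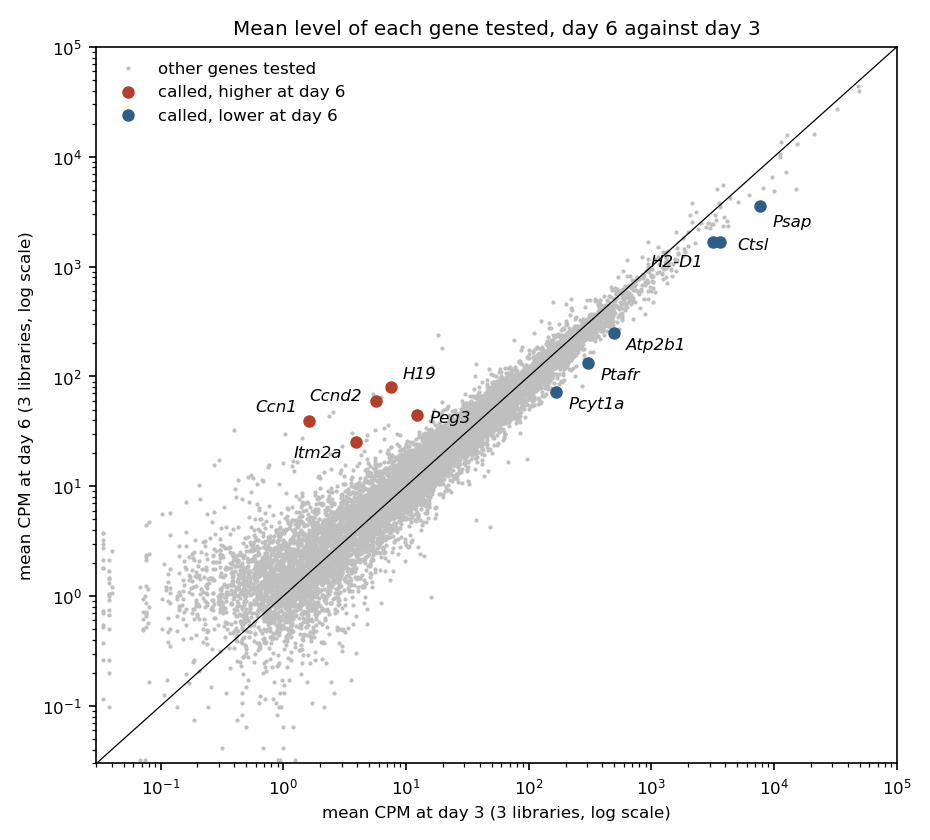
Mean CPM of each gene tested at day 6 (vertical axis, log scale) against day 3 (horizontal axis, log scale), 3 libraries each; genes with a mean of 0 in one group are not drawn and the line marks equal means. The 6 called genes below the line and the 5 above it are marked, and most of the 13530 genes lie close to the line.

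Levels of lysosomal genes were lower at day 6 in a large share of the list, and 2 of its members passed the test. Psap encodes prosaposin, the precursor of the saposins that help lysosomal enzymes break down sphingolipids. It stood at 3452, 3872 and 3427 CPM in the day 6 libraries, against 7772, 7177 and 8165 CPM in the day 3 libraries. All day 6 values lay well below all day 3 values. Psap fell by 1.12 on the log2 scale (SE 0.15, adjusted p = 0.00978). Its means on days 0, 3, 6 and 12 were 3043, 7705, 3584 and 2617 CPM, so day 3 was the highest of the 4 days.

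Ctsl, the cysteine protease cathepsin L, had 1826, 1257 and 1937 CPM at day 6, against 3469, 3983 and 3481 CPM at day 3. The lowest value was in day 6 replicate 2, and the groups were apart. Ctsl fell by 1.13 on the log2 scale (SE 0.19, adjusted p = 0.0398). All 40 genes of the lysosomal list were tested, and 19 of them were lower in every day 6 library than in every day 3 library, against a background of 9.04%; none was higher in every day 6 library. The list's median log2 fold change was -0.36, against 0.01 over all genes tested.

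With the 24 libraries in the fit, which called 1.21% of all genes lower at day 6 and 1.06% higher, 6 of the 40 lysosomal genes passed, all lower: Psap, Ctsl, Gla, Glb1, Atp6v1a and Hexa. The 4 added here were named after their values were seen. Gla, the alpha-galactosidase that trims glycolipids, had 112, 90.2 and 109 CPM at day 6 and 187, 171 and 217 CPM at day 3, with an adjusted p of 0.057 in the 12-library fit and 0.00257 in the 24-library fit. Atp6v1a, the catalytic subunit of the proton pump that acidifies lysosomes, had 694, 715 and 763 CPM at day 6 and 1082, 997 and 1036 CPM at day 3 (adjusted p = 0.143 and 0.0137 in the same 2 fits). Neither gene's groups overlapped. The aspartic protease cathepsin D, Ctsd, had 35651, 46104 and 37673 CPM at day 6, against 47017, 51627 and 49056 CPM at day 3. The Ctsd values did not overlap either, but the difference of -0.32 on the log2 scale did not pass (adjusted p = 0.626).

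H2-D1, a heavy chain of the class I molecules that show peptides to T cells, had 1812, 1682 and 1581 CPM at day 6, against 3234, 2786 and 3464 CPM at day 3. All day 6 values lay below all day 3 values. H2-D1 fell by 0.91 on the log2 scale (SE 0.15, adjusted p = 0.0387). Class I heavy chain genes are near-identical to each other and reads that mapped to several places were not counted, so the level of any one of them is uncertain. The related H2-K1 had 1012, 872 and 920 CPM at day 6 and 1588, 1349 and 1396 CPM at day 3, with no overlap (adjusted p = 0.105). Of the 16 class I genes, all tested, 7 were lower in every day 6 library and none was higher in every one, against backgrounds of 9.04% and 8.95%, and the median log2 fold change was -0.47. In the 24-library fit, where 1.21% of all genes were called lower, 5 passed, all lower at day 6: H2-D1, H2-K1, H2-T23, H2-M3 and the peptide trimming enzyme Erap1. B2m, the light chain that every class I heavy chain needs, had 3211, 1549 and 3695 CPM at day 6 and 3629, 2844 and 5379 CPM at day 3, and its groups overlapped. Of 10 tested class II genes 1 was lower in every day 6 library. The invariant chain Cd74 had 3.37, 5.57 and 5.17 CPM at day 6 and 18.05, 14.6 and 8.49 CPM at day 3, which did not overlap and did not pass (adjusted p = 0.328).

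The other 3 genes that were lower at day 6 belong to lipid signalling, membrane lipid synthesis and calcium export. Ptafr, the receptor for the inflammatory lipid platelet-activating factor, had 146, 114 and 137 CPM at day 6, against 324, 279 and 306 CPM at day 3. Its groups were far apart, with a fall of 1.20 on the log2 scale (SE 0.15, adjusted p = 0.00978). Pcyt1a, the rate-limiting enzyme of the main route to phosphatidylcholine, had 73.8, 84.1 and 57.7 CPM at day 6, against 188, 164 and 148 CPM at day 3. The highest day 6 value was well under the lowest day 3 value, and the gene fell by 1.23 on the log2 scale (SE 0.17, adjusted p = 0.0177). Atp2b1, a calcium pump of the plasma membrane, had 285, 214 and 247 CPM at day 6, against 525, 491 and 466 CPM at day 3. It fell by 1.00 on the log2 scale (SE 0.16, adjusted p = 0.0387) with no overlap. In all 6 genes that fell, the day 12 mean was lower than the day 6 mean or close to it: 95.9 CPM at day 12 against 132.5 CPM at day 6 in Ptafr, 71.5 against 71.9 CPM in Pcyt1a, 226.2 against 248.7 CPM in Atp2b1, 1342 against 1673 CPM in Ctsl, 1466 against 1692 CPM in H2-D1, and 2617 against 3584 CPM in Psap. Day 12 was not tested against day 6.

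**Figure D2:**
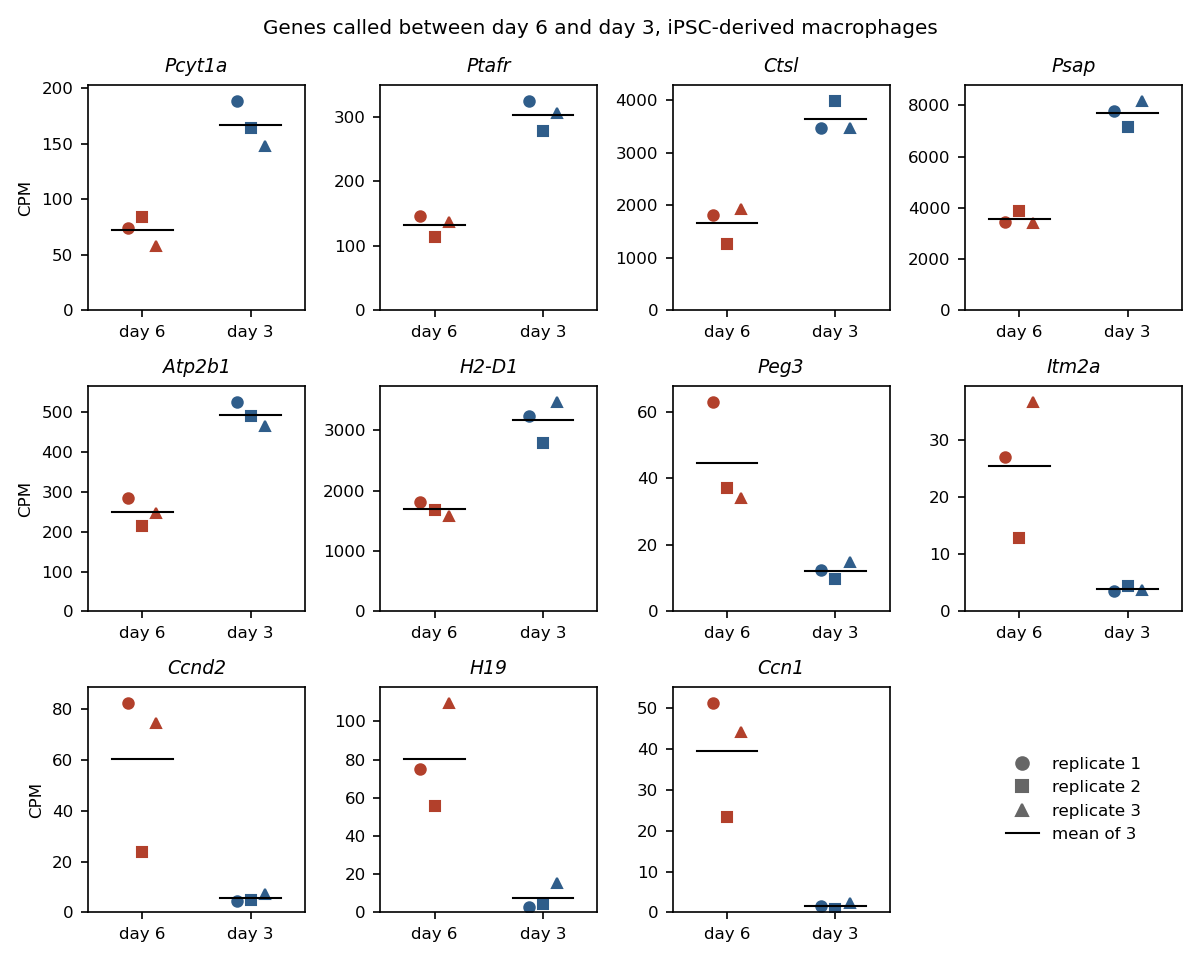
CPM of the 11 called genes in each iPSC-derived library at day 6 (left, red) and day 3 (right, blue); symbols stand for replicates 1 to 3 and lines for the mean of 3, and each panel has its own axis from 0. No panel shows overlap, and day 6 replicate 2 is the lowest of the day 6 values in Ccnd2, Itm2a, Ccn1 and H19, which rose, and in Ctsl, Ptafr and Atp2b1, which fell, while replicate 3 is the lowest in Peg3, Psap, H2-D1 and Pcyt1a.

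The 5 genes that were higher at day 6 had at most 15.5 CPM in any day 3 library. From day 6 to day 12 the mean went from 60.1 to 16.5 CPM in Ccnd2 and from 80.1 to 29.4 CPM in H19. It went from 44.7 to 24.8 CPM in Peg3 and from 25.5 to 17.3 CPM in Itm2a. In Ccn1 it was higher again at day 12, at 82.8 CPM against 39.6 CPM at day 6. These day 12 levels were not tested against day 6. Ccnd2, cyclin D2, which drives cells through the G1 phase of the cell cycle, had 82.2, 23.7 and 74.5 CPM at day 6, against 4.61, 5.05 and 7.34 CPM at day 3. Replicate 2 was much the lowest at day 6 but still above every day 3 value. Ccnd2 rose by 3.40 on the log2 scale (SE 0.45, adjusted p = 0.00978). Ccn1, a secreted matrix protein and a known target of YAP and TEAD, had 51.2, 23.4 and 44.1 CPM at day 6, against 1.64, 0.842 and 2.41 CPM at day 3. Its rise of 4.58 on the log2 scale was the largest of the 11 genes (SE 0.69, adjusted p = 0.0398). Itm2a, a membrane protein of uncertain role in macrophages, had 26.98, 12.9 and 36.6 CPM at day 6, against 3.49, 4.45 and 3.79 CPM at day 3, a rise of 2.71 (SE 0.40, adjusted p = 0.0199). The groups of neither gene overlapped.

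H19 and Peg3 are imprinted genes, expressed from 1 parental copy and high in fetal tissues. H19, a long non-coding RNA, had 75.1, 55.7 and 109.5 CPM at day 6, against 2.67, 4.33 and 15.5 CPM at day 3. The lowest day 6 value was above the highest day 3 value, and H19 rose by 3.41 on the log2 scale (SE 0.56, adjusted p = 0.0481). Peg3, a zinc finger protein, had 62.8, 37.2 and 34.1 CPM at day 6, against 12.3, 9.62 and 14.8 CPM at day 3, a rise of 1.85 (SE 0.31, adjusted p = 0.0398). Of the 17 genes of the imprinted and fetal list, 16 were tested, and 8 were higher in every day 6 library, against a background of 8.95%; none was lower in every one. In the 24-library fit, where 1.06% of all genes were called higher, 6 of them passed, all higher: H19, Peg3, Igf2, Meg3, Plagl1 and Mest. Meg3, an imprinted long non-coding RNA, had 25.7, 38.2 and 26.9 CPM at day 6 and 1.54, 2.41 and 6.997 CPM at day 3, and just missed the threshold in the 12-library fit (adjusted p = 0.0509). Igf2, a fetal growth factor, had 46.3, 11.4 and 85.5 CPM at day 6 and 1.13, 2.16 and 4.36 CPM at day 3 (adjusted p = 0.123).

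Summed markers of fibroblasts, mural cells and epithelial or mesothelial cells were higher at day 6 along with these 5 genes, although not every marker was. The 18 genes of the fibroblast and matrix list summed to 848, 526 and 1063 CPM at day 6, against 62.1, 146 and 117 CPM at day 3. Of its 17 tested genes, 9 were higher in every day 6 library and none was lower in every one. Over all genes tested, the shares were 8.95% higher and 9.04% lower. The day 6 sums lay far above the day 3 sums, and no member of this list was at 0 in all libraries of either day. For the 12 smooth muscle and pericyte markers the sums were 348, 144 and 267 CPM at day 6, against 100.1, 119.9 and 102 CPM at day 3. The same markers summed to 164, 154 and 122 CPM at day 0, without co-culture, and to 112, 121 and 109 CPM at day 12. All day 0 sums thus lay above the day 3 sums, and day 6 replicate 2 lay within the day 0 range. Of 9 tested, 3 were higher in every day 6 library, against the same 8.95%, and Kcnj8 was at 0 in all 6 libraries. The pericyte marker Rgs5 stood the other way, with 0 counts at day 6 and 63 counts at day 3, at least 20.6-fold lower against the floor of 3 counts over the group, and its day 3 counts were all in replicate 1 (6.46 CPM). The 10 epithelial and mesothelial markers summed to 52.6, 7.06 and 60.1 CPM at day 6 and to 6.36, 3.73 and 0.573 CPM at day 3. Of 6 tested, 3 were higher in every day 6 library, against the same 8.95%. The filter kept genes with enough reads in as few as 3 libraries. A gene at 0 at day 3, such as Msln, could thus be tested only through its reads on other days, which favoured this direction. Epcam, Cdh1, Msln and Lrrn4 were at 0 at day 3. In all 3 lists day 6 replicate 2 had the lowest day 6 sum. It also had the lowest day 6 value in Ccnd2, Itm2a, Ccn1 and H19, but not in Peg3, and it was the lowest in Ctsl, Ptafr and Atp2b1, which fell. The part of such cells in the rise of the 5 genes was not tested. Bulk RNA does not tell more or fewer cells of a type from more or less RNA per cell.

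Single markers showed the same range, although none passed in the 12-library fit. Col1a1, the main chain of type I collagen, had 258, 151 and 307 CPM at day 6, against 4.41, 27.4 and 22.9 CPM at day 3, with no overlap (log2 fold change 3.71, SE 0.81, adjusted p = 0.101). Acta2, the actin of smooth muscle, had 119, 25.1 and 63.9 CPM at day 6, against 4.72, 6.61 and 4.93 CPM at day 3 (log2 fold change 3.67, SE 0.88, adjusted p = 0.129). The mesothelial gene Msln had 573 counts over the 3 day 6 libraries and 0 over the 3 day 3 libraries, and was thus at least 194-fold higher at day 6 against a floor of 3 counts over the group. Its day 6 levels of 20.2, 2.23 and 38.3 CPM differed widely between replicates. With no reads at day 3, Msln passed the filter only through its reads on other days. In the 24-library fit 5 of the 17 fibroblast genes with enough reads passed, as did 3 of 10 smooth muscle genes and 1 of 8 epithelial and mesothelial genes, all higher at day 6, against 1.06% of all genes called higher by that fit.

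**Figure D3:**
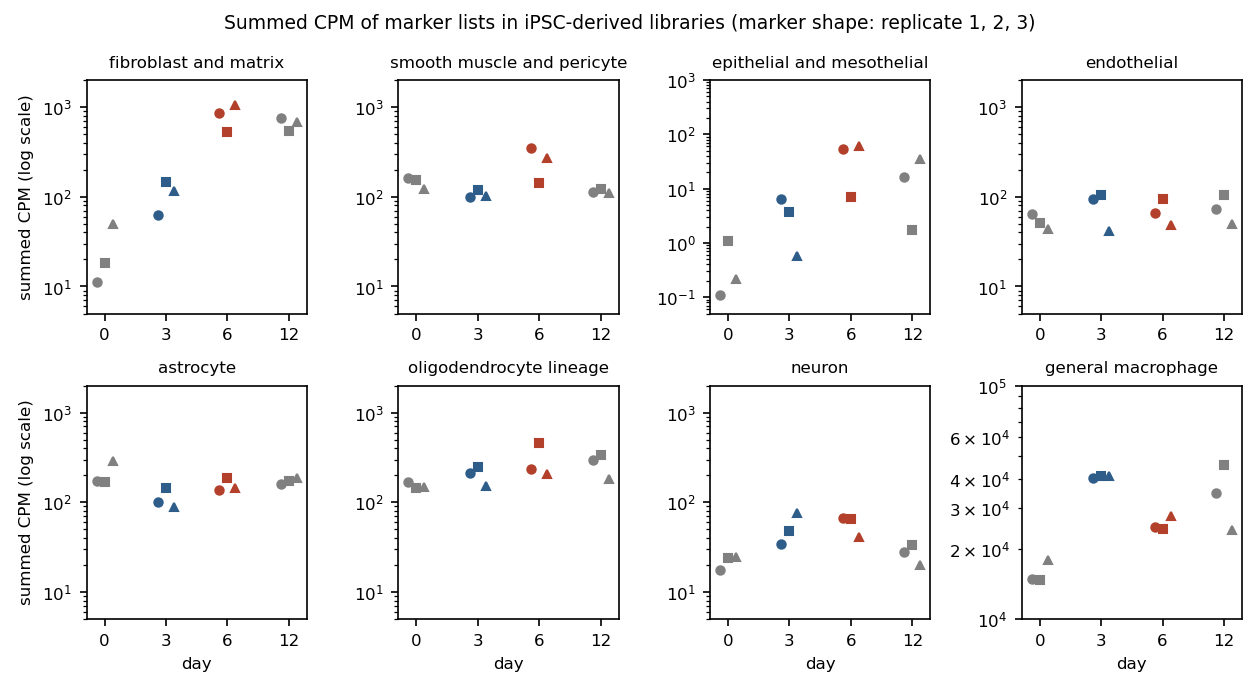
Summed CPM (log scale) of 8 marker lists in each iPSC-derived library at days 0, 3, 6 and 12, with symbols for replicates 1 to 3, day 6 in red and day 3 in blue. The fibroblast and matrix sum was 526 to 1063 CPM at day 6 and 62.1 to 146 CPM at day 3. The general macrophage sum was lower at day 6 than at day 3 in every library, mostly through Lyz2.

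Summed markers of neural cells overlapped between the days. The 12 astrocyte markers summed to 136 to 186 CPM at day 6 and 89.0 to 145 CPM at day 3, the 12 oligodendrocyte lineage markers to 209 to 460 CPM at day 6 and 150 to 248 CPM at day 3, and the 19 neuron markers to 41.0 to 67.5 CPM at day 6 and 34.1 to 75.9 CPM at day 3. Of the 11 tested astrocyte markers 5 were higher in every day 6 library (8.95% over all genes) and 1 was lower in every one (9.04%). Gfap, the filament protein of astrocytes, had 4.87, 15.6 and 5.46 CPM at day 6 and 0.103, 2.16 and 0.918 CPM at day 3, with no overlap (adjusted p = 0.0937). Of 5 tested endothelial markers, 3 were lower in every day 6 library (9.04% over all genes) and none was higher in every one. Among all 10 listed, Cldn5 and Emcn were at 0 in all 6 libraries. The endothelial sums of 48.9 to 95.5 CPM at day 6 and 41.4 to 103 CPM at day 3 overlapped. Among 18 markers of other blood cells, 10 were at 0 in all 6 libraries, and the sums were 52.5 to 146 CPM at day 6 and 25.3 to 63.9 CPM at day 3.

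None of the microglia genes passed the 12-library test between the 2 days. Of the 30 listed genes, 29 were tested, 15 had a log2 fold change above 0 and 14 below, and the median was 0.07; over all genes tested, 50.8% were above 0. Their summed level was 21305, 21207 and 24009 CPM at day 6 and 23393, 26628 and 18630 CPM at day 3, so the groups overlapped, against 7258 to 7969 CPM in the day 0 libraries. P2ry12 had 73.3, 109.6 and 63.9 CPM at day 6 and 103, 94.3 and 56.0 CPM at day 3. Cx3cr1 had 1205, 1828 and 1062 CPM at day 6 and 1174, 1774 and 810.1 CPM at day 3. The replicates of each day spread as widely as the days differed in both genes. Tmem119 had 29.98, 37.3 and 40.7 CPM at day 6 and 21.1, 32.8 and 18.7 CPM at day 3, with a log2 fold change of 0.57 (SE 0.56, adjusted p = 0.799).

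Fcrls, a microglia-enriched receptor-like protein, had 3041, 3386 and 2389 CPM at day 6 and 2377, 2675 and 1127 CPM at day 3, and C1qa, a chain of the complement starter C1q, had 1889, 933.6 and 1728 CPM at day 6 and 1072, 1301 and 1041 CPM at day 3. Both overlapped between days. Sall1, a transcription factor of microglia in the brain, stayed near the limit of detection at 1.25, 1.36 and 0.683 CPM at day 6 and 0, 2.65 and 0.688 CPM at day 3. Siglech had 0.5, 0.124 and 0 CPM at day 6 and 0.82, 1.68 and 1.15 CPM at day 3, too few reads to be tested. Sparc, a matrix protein on the microglia list that fibroblasts also make, was the list's member nearest the threshold, with 147, 42.9 and 176 CPM at day 6 and 10.97, 18.2 and 19.5 CPM at day 3 (log2 fold change 2.91, SE 0.48, adjusted p = 0.0504). At day 6 its values were lowest in replicate 2, as were the fibroblast sums. Replicate 2 was also the lowest day 6 library in genes that fell, such as Ctsl. The part of other cells in the Sparc levels was not tested.

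**Figure D4:**
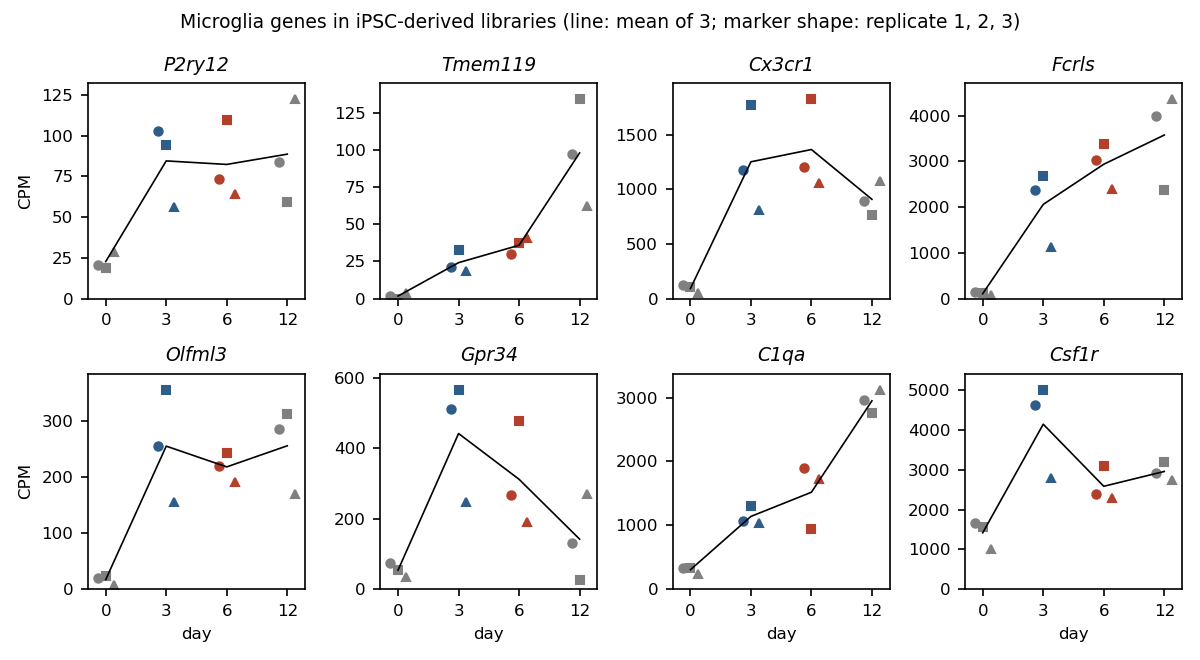
CPM of 8 microglia genes in each iPSC-derived library at days 0, 3, 6 and 12; symbols stand for replicates 1 to 3, lines join the means of 3, and day 6 is red and day 3 blue. Day 6 and day 3 values overlap in all 8 panels, and in all 8 every day 6 and day 3 value lies above the day 0 values.

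General macrophage genes lay lower at day 6 in part of the list. The summed level was 24290 to 27595 CPM at day 6 and 40308 to 41198 CPM at day 3, without overlap. Most of that fall was in Lyz2, with means of 5076 CPM at day 6 and 15073 CPM at day 3. Of the 22 genes, all tested, 8 were lower in every day 6 library (9.04% over all genes) and none was higher in every one. No gene of the list passed in the 12-library fit, and 6 passed in the 24-library fit, which called 1.21% of all genes lower, all lower at day 6: Csf1r, Mertk, Fcgr1, Lyz2, Cybb and Mpeg1. Lyz2, the lysozyme of macrophages, had 6211, 3394 and 5622 CPM at day 6 and 13050, 13012 and 19158 CPM at day 3, with no overlap (log2 fold change -1.58, SE 0.53, adjusted p = 0.299). Csf1r, the receptor for the growth factors that keep macrophages alive, had 2379, 3087 and 2284 CPM at day 6 and 4617, 5015 and 2798 CPM at day 3, and overlapped through day 3 replicate 3 (adjusted p = 0.249). Ptprc, the pan-leukocyte antigen CD45, had 376, 367 and 398 CPM at day 6 and 508, 529.9 and 469 CPM at day 3, with no overlap (adjusted p = 0.457). Mertk, a receptor for dying cells, had 215, 206 and 279 CPM at day 6 and 355, 367 and 388 CPM at day 3, with no overlap (adjusted p = 0.274). The share of other cells in these lower levels was not tested; the fibroblast sums beside them are given above.

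Genes of disease-associated microglia, the state seen around amyloid plaques, included Ctsl, which fell, and 22 other tested genes that did not pass. All 3 day 6 libraries lay below all 3 day 3 libraries in 7 of the 23 tested genes (9.04% over all genes), and in none were they all above (8.95%). Gpnmb, a membrane glycoprotein of this state, had 5831, 8160 and 7812 CPM at day 6 and 10985, 12077 and 14670 CPM at day 3 (log2 fold change -0.80, SE 0.20, adjusted p = 0.123). Clec7a, the beta-glucan receptor dectin-1, had 416, 513 and 188 CPM at day 6 and 994, 961 and 726 CPM at day 3 (adjusted p = 0.266). Apoe and Trem2 overlapped between days. Apoe, the main apolipoprotein of the brain, had 52884, 31696 and 46582 CPM at day 6 and 43852, 53245 and 48302 CPM at day 3.

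Receptor genes for cytokines and growth factors were lower in every day 6 library in 7 of 22 tested genes (9.04% over all genes), with 1 higher in every one (8.95%) and a median log2 fold change of -0.53. None passed in the 12-library fit, and 6 passed in the 24-library fit, all lower, against 1.21% of all genes. Il7r, the interleukin-7 receptor, had 2.62, 3.47 and 8.58 CPM at day 6 and 28.3, 30.9 and 53.6 CPM at day 3 (log2 fold change -2.92, SE 0.54, adjusted p = 0.0649). It was at 119 CPM on day 0 and at 0.421 CPM on day 12, so day 6 lay between day 3 and day 12. Tnfrsf1b, a receptor for TNF named after its values were seen, had 402, 551 and 481 CPM at day 6 and 1113, 1137 and 856 CPM at day 3 (adjusted p = 0.057). Both genes showed no overlap.

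The interferon response list had 11 of 30 tested genes lower in every day 6 library (9.04% over all genes) and none higher in every one, with a median log2 fold change of -0.49, and no gene passed in the 12-library fit. Irf7, a transcription factor that amplifies the response, had 95.7, 86.0 and 34.2 CPM at day 6 and 188, 167 and 112 CPM at day 3 (adjusted p = 0.206). Rsad2, the antiviral enzyme viperin, had 115, 83.6 and 66.9 CPM at day 6 and 213, 146 and 207 CPM at day 3 (adjusted p = 0.133), and was 1 of 2 genes of the list that passed in the 24-library fit, both lower, against 1.21% of all genes. Levels were higher still on day 0 in both, at means of 293 and 690 CPM. Abca1, the cholesterol exporter controlled by the sterol sensor LXR, had 919, 871 and 685 CPM at day 6 and 1371, 1504 and 1581 CPM at day 3 (adjusted p = 0.0713). Of 14 tested LXR and lipid efflux genes, 4 were lower in every day 6 library, against the same 9.04%, and none was higher in every one.

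Cholesterol synthesis genes stood the other way: 12 of 24, all tested, were higher in every day 6 library (8.95% over all genes) and none was lower in every one, with a median log2 fold change of 0.60. None passed in the 12-library fit, and Sqle, Msmo1 and Insig1 passed in the 24-library fit, which called 1.06% of all genes higher. Msmo1, a sterol oxidase of the pathway, had 174, 151 and 199.9 CPM at day 6 and 113, 108 and 82.9 CPM at day 3 (adjusted p = 0.143). Insig1, the sterol-sensing brake on the pathway, had 99.8, 103 and 116 CPM at day 6 and 64.7, 59.8 and 22.6 CPM at day 3 (adjusted p = 0.247). Day 3 replicate 3 was the lowest library in both genes.

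Immediate early genes, which respond within minutes to stimuli that include cell handling, were higher in every day 6 library in 12 of 19 tested genes (8.95% over all genes) and lower in every one in none. The median log2 fold change was 0.91 and none passed in the 12-library fit. Fos had 489, 557 and 483 CPM at day 6 and 289, 236 and 134 CPM at day 3 (log2 fold change 1.21, SE 0.29, adjusted p = 0.119). Egr1 had 433, 715 and 284 CPM at day 6 and 225, 190 and 57.1 CPM at day 3 (adjusted p = 0.183). Neither overlapped, and both were higher again on day 12, at means of 1560 and 797 CPM. The share of reads in mitochondrial genes was 6.28%, 3.31% and 4.31% at day 6 and 2.46%, 2.51% and 4.54% at day 3, with overlap; its part in these differences was not tested.

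Cell division genes did not pass in either direction in the 12-library fit. For 30 mitosis genes the median log2 fold change was -0.52, with 2 lower in every day 6 library, none higher in every one and summed levels of 443, 383 and 630 CPM at day 6 against 758, 755 and 416 CPM at day 3. Day 3 replicate 3 was below the other day 3 libraries, so the groups overlapped. Of 30 DNA replication genes, 4 were higher in every day 6 library and none was lower in every one, with a median of 0.11. These counts lie near the shares over all genes of 8.95% higher and 9.04% lower. The proliferation marker Mki67 had 36.7, 25.8 and 41.8 CPM at day 6 and 45.2, 43.7 and 27.4 CPM at day 3. Inflammatory genes were mixed, with 5 of 25 tested NF-kappaB targets higher in every day 6 library and 3 lower in every one, beside the same shares. Tnf had 32.6, 17.2 and 41.1 CPM at day 6 and 18.8, 15.03 and 13.8 CPM at day 3, which overlapped.

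**Figure D5:**
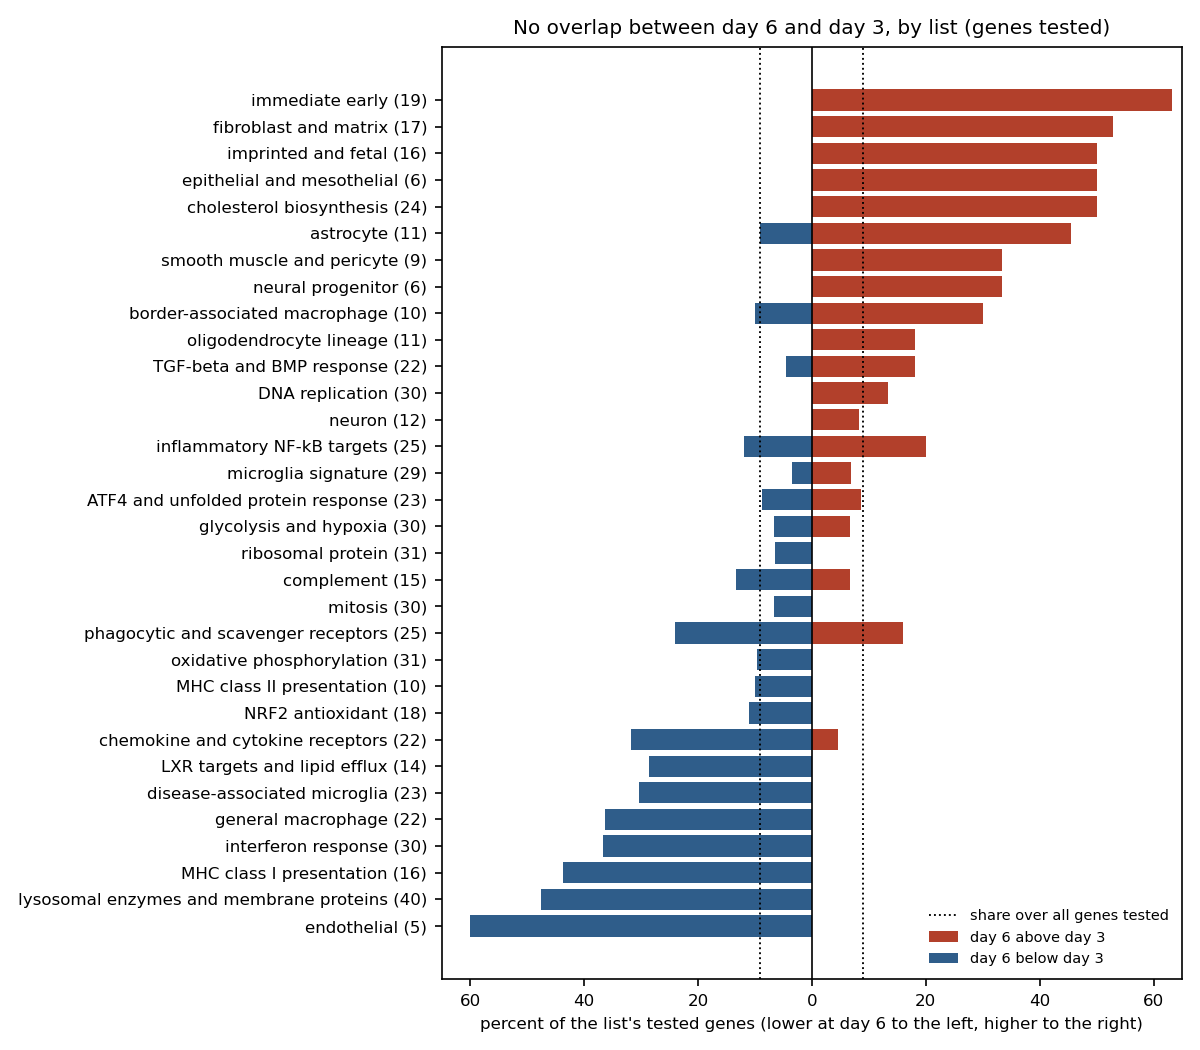
Percent of each list's tested genes that were lower (left, blue) or higher (right, red) in all 3 day 6 libraries than in all 3 day 3 libraries, with the number of genes tested in parentheses; lists with under 5 tested genes are not drawn. Dotted lines mark the shares over all 13530 genes, 9.04% lower and 8.95% higher; 19 of 40 lysosomal genes lie on the left and 12 of 24 cholesterol synthesis genes on the right.

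Further genes with large differences were taken from the 24-library fit after their values were seen, and only from genes without overlap between days. Marco, a scavenger receptor for bacteria, had 4.37, 0.867 and 7.41 CPM at day 6 and 75.7, 30.3 and 39.7 CPM at day 3 (log2 fold change -3.50; adjusted p = 0.135 in the 12-library fit and 0.0158 in the 24-library fit). Adgre5, the adhesion receptor CD97, had 19.9, 20.9 and 12.5 CPM at day 6 and 98.5, 112 and 78.3 CPM at day 3 (log2 fold change -2.45; adjusted p = 0.057 and 0.000404). The separation of both genes between days was set by this choice. Timp3, an inhibitor of matrix proteases, had 49.2, 14.7 and 66.9 CPM at day 6 and 3.08, 3.13 and 0.918 CPM at day 3 (log2 fold change 4.20; adjusted p = 0.0705 and 0.00308). Plagl1, an imprinted transcription factor, had 66.2, 38.3 and 89.0 CPM at day 6 and 2.05, 4.57 and 12.3 CPM at day 3 (log2 fold change 3.35; adjusted p = 0.127 and 0.0122). Day 6 replicate 2 was the lowest day 6 library in Timp3 and Plagl1, which rose, and in Marco, which fell, but not in Adgre5. The cause was not tested.

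The change between the 2 days was then set against that of the bone marrow-derived macrophages, which share no library with it, in 1 model of all 24 libraries. The 2 changes differed at an adjusted p below 0.05 in 55 of 15000 genes (0.367%), 17 with the more positive change in iPSC-derived cells (0.113%) and 38 with the more negative (0.253%). Of the 11 genes above, Psap, Ptafr, Pcyt1a and Atp2b1 were among the 55. The 11 were chosen by the change in iPSC-derived cells. That change is also part of this difference, so some overlap was built in. Ptafr averaged 132.5 ± 16.7 CPM at day 6 and 303.2 ± 22.9 CPM at day 3 in iPSC-derived cells, and 208.2 ± 27.6 CPM at day 6 and 216.5 ± 21.3 CPM at day 3 in bone marrow-derived cells (SD, n = 3 each). The difference of the changes was -1.14 on the log2 scale (SE 0.18, adjusted p = 0.00524). Pcyt1a averaged 76.6 ± 2.20 CPM at day 6 and 70.1 ± 8.395 CPM at day 3 in bone marrow-derived cells, close to the day 6 level of iPSC-derived cells at 71.9 ± 13.3 CPM, and the changes differed by -1.34 (SE 0.23, adjusted p = 0.0104). Atp2b1 averaged 273.0 ± 31.5 CPM at day 6 and 268.0 ± 18.3 CPM at day 3 in bone marrow-derived cells, with a difference of changes of -1.02 (SE 0.18, adjusted p = 0.0104). Psap averaged 9299 ± 306 CPM at day 6 and 12454 ± 707 CPM at day 3 in bone marrow-derived cells, and the changes differed by -0.68 (SE 0.15, adjusted p = 0.0393). The Psap difference did not pass with replicate 1 of day 6 (adjusted p = 0.114), replicate 3 of day 6 (0.0815), replicate 1 of day 3 (0.101) or replicate 3 of day 3 (0.0629) left out. Among iPSC-derived libraries, leaving out replicate 1 or replicate 3 of day 6 gave 32 genes each, leaving out replicate 1 of day 3 gave 25, and leaving out replicate 3 of day 3 gave 98.

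Among the microglia genes, the organic anion transporter Slco2b1 differed between the sources in this test. It averaged 339 ± 80.2 CPM at day 6 and 415 ± 43.6 CPM at day 3 in iPSC-derived cells, against 171 ± 4.11 CPM at day 6 and 57.6 ± 16.7 CPM at day 3 in bone marrow-derived cells (SD, n = 3 each), a difference of changes of -1.87 on the log2 scale (SE 0.33, adjusted p = 0.0104). Of the 40 lysosomal genes 4 were among the 55, all with the more negative change in iPSC-derived cells, including Psap, Ctsd and the acid lipase Lipa. Over all genes in that test, 0.253% passed with the more negative change and 0.113% with the more positive. In bone marrow-derived cells 7 of 30 microglia genes were higher at day 6 than at day 3, in the 24-library fit that called 0.847% of all genes there, 0.413% higher and 0.433% lower. In iPSC-derived cells that fit called Sparc higher and Csf1r and Selplg lower among them. Cx3cr1 had a log2 change of 1.96 in bone marrow-derived cells (adjusted p = 0.0135) and of 0.12 in iPSC-derived cells in the 24-library fit, but the difference of -1.83 did not pass (SE 0.53, adjusted p = 0.177). Mitosis genes had a median log2 change of 1.40 in bone marrow-derived cells, where 6 of 30 passed, all higher, against -0.52 in iPSC-derived cells. Of these, the difference of changes passed in 1 gene, the kinetochore motor Cenpe (-2.37, SE 0.48, adjusted p = 0.0328), which did not pass without day 3 replicate 1 (adjusted p = 0.0603), day 3 replicate 2 (0.0706) or day 6 replicate 1 (0.0929) of the iPSC-derived libraries. For the 5 genes that were higher at day 6, none of the differences of changes passed. Ccn1 was also higher in bone marrow-derived cells at day 6 (log2 change 3.88, adjusted p = 0.00261).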

How the data were processed

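RNA was measured by RNA-seq (SMART-seq v2, paired reads, per the labels' protocols) in 24 libraries, 8 groups of 3. The authors deposited 1 table of raw read-pair counts for 47643 genes, made with featureCounts 1.5.0-p1 on GENCODE mouse genes, per the file headers, after STAR alignment to mm10 (GRCm38), per the submitters' processing notes. Per the file headers no strand option was set and reads that mapped to several places or genes were not counted, so overlapping and antisense genes cannot be told apart. Gene IDs were matched to symbols for 47224 genes; the 419 others held 0.0635% of counts.

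Totals were 5839316 to 11805478 counts over the 24 libraries. The members and gene lists were chosen with earlier results of these data known. Genes were filtered with filterByExpr (minimum count 10, minimum total 15), scaled by TMM and tested with edgeR 4.0.16 (R 4.3.3) by a robust quasi-likelihood fit, day 6 minus day 3, in the 12 iPSC-derived libraries, with Benjamini-Hochberg adjustment and a threshold of 0.05. The standard error is the log2 fold change divided by the root of F. The comparison with bone marrow-derived cells is the difference of the 2 changes in a fit of all 24 libraries. CPM are on TMM-scaled library sizes. Levels are not corrected for gene length and are compared within a gene. No overlap means that all 3 values of one day lie above all 3 of the other. Folds against a group at 0 use a floor of 3 counts over the group, which covers counting error only.

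Named genes were up to 15 per direction with the largest fold change among called genes without overlap and with a mean of at least 20 CPM, 30 genes fixed by name, up to 5 called members per list, and up to 5 genes per direction from the source comparison; other genes were named after their values were seen. Promoter windows came from the RefSeq table and covered 9 of the 11 called genes. Alternatives were no scaling, RLE factors, DESeq2 1.42.0, other filters, a replicate block, other sets of libraries and leaving out each replicate; the fit of 9 co-cultured libraries and limma 3.58.1 voom with a weight per library were added after seeing the data. The main edgeR fits, of day 6 against day 3 and of the difference between sources, were tested on simulated data. The alternatives and the change in bone marrow-derived cells were not. The values of 1 gene are not reported here.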

Additional observations from a re-analysis of the deposited data

Results flagged for a closer look

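The change between day 6 and day 3 differed between iPSC-derived and bone marrow-derived macrophages in 55 genes, by the test of the difference itself in all 24 libraries. The 15 genes named for this difference are given here with the difference of the log2 changes, subtracting the bone marrow-derived one, and with mean CPM of 3 libraries. Groups of 3 are too small for a test of single outlying libraries.

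Of the genes with the more negative change in iPSC-derived cells, Ptafr (-1.137), Atp2b1 (-1.0156), Pcyt1a (-1.3413) and Il7r (-3.1694) passed in all 14 alternatives run. Il7r averaged 4.89 CPM at day 6 and 37.6 CPM at day 3 in iPSC-derived cells, against 45.0 CPM at day 6 and 37.7 CPM at day 3 in bone marrow-derived cells. Psap (-0.6823) did not pass in 5 alternatives, with adjusted p up to 0.154. Adgre5 (-2.2014) averaged 17.8 CPM at day 6 and 96.4 CPM at day 3 in iPSC-derived cells, against 42.2 CPM at day 6 and 49.9 CPM at day 3 in bone marrow-derived cells, and did not pass in 4 (up to 0.0848). Tceal9 (-1.2739) averaged 134 CPM at day 6 and 323 CPM at day 3 in iPSC-derived cells, against 53.5 CPM at day 6 and 53.2 CPM at day 3 in bone marrow-derived cells, and did not pass in 8 (up to 0.167). Bcar3 (-2.2063) averaged 28.3 CPM at day 6 and 62.9 CPM at day 3 in iPSC-derived cells, against 17.2 CPM at day 6 and 8.27 CPM at day 3 in bone marrow-derived cells, and did not pass in 5 (up to 0.138). Cenpe (-2.3731) averaged 13.3 CPM at day 6 and 20.6 CPM at day 3 in iPSC-derived cells, against 18.6 CPM at day 6 and 5.54 CPM at day 3 in bone marrow-derived cells, and did not pass in 3 (up to 0.0929). Rtn4rl1 (-3.4204) averaged 92.8 CPM at day 6 and 67.5 CPM at day 3 in iPSC-derived cells, against 8.03 CPM at day 6 and 0.533 CPM at day 3 in bone marrow-derived cells, and did not pass in 4 (up to 0.0628).

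Of the genes with the more positive change in iPSC-derived cells, Lbh (2.0925) and Agap3 (1.5974) passed in all 14 alternatives. Lbh averaged 16.0 CPM at day 6 and 5.74 CPM at day 3 in iPSC-derived cells, against 22.97 CPM at day 6 and 35.2 CPM at day 3 in bone marrow-derived cells. Agap3 averaged 31.4 CPM at day 6 and 12.7 CPM at day 3 in iPSC-derived cells, against 23.9 CPM at day 6 and 29.3 CPM at day 3 in bone marrow-derived cells. Egln1 (1.9028), an oxygen sensor, averaged 17.98 CPM at day 6 and 5.63 CPM at day 3 in iPSC-derived cells, against 20.0 CPM at day 6 and 23.4 CPM at day 3 in bone marrow-derived cells, and did not pass in 8 alternatives (up to 0.159). Rasgrp4 (4.476) had 37 counts at day 6 and 3 counts at day 3 in iPSC-derived cells, a ratio of 12.5 with a counting interval of 3.97 to 63.6, and did not pass in 6 (up to 0.239). It averaged only 1.35 CPM at day 6 and 0.115 CPM at day 3 there. In bone marrow-derived cells it averaged 11.6 CPM at day 6 and 23.6 CPM at day 3. Col5a2 (10.1598), a fibrillar collagen chain, averaged 32.4 CPM at day 6 and 0.395 CPM at day 3 in iPSC-derived cells. In bone marrow-derived cells it had 2 counts at day 6, so its fitted value depends on the prior count, and it did not pass with voom weights by source (adjusted p = 0.186).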

How the results depend on the processing

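Direction held for all 11 called genes in every alternative run, but the calls did not. Against 11 genes called, DESeq2 called 277, no filter 329, the fit of all 24 libraries 340, of the 6 libraries 2, of the 9 co-cultured libraries 7, and voom with library weights 334; leaving out 1 library gave 0 to 28. Without scaling 9 genes were higher and 2 lower, against 5 and 6, as the median of all genes moved to 0.17 from 0.01 (log2). The list members called, 5 in the report, were 56, 97, 63, 0, 2 and 48 in the same 6 alternatives and 0 to 9 with 1 library left out. Of the 11 called genes, 7 passed without scaling, 1 in the 6-library fit, 5 in the 9-library fit and 0 to 10 with 1 library left out. For the difference between sources (55), DESeq2 called 174, no filter 325, and leaving out 1 library gave 25 to 98. Whether replicate numbers pair the samples was not settled. Deviations of same-numbered day 6 and day 3 libraries correlated at -0.093, 0.287 and 0.301. Those of differently numbered libraries correlated at -0.365 to 0.211. With the number as a replicate block, 28 genes, 11 list members and 85 differences between sources were called. Of 83 gene results 8 turned direction in some alternative, none of them called: without scaling P2ry12 (0.12) and Sall1 (0.15); Sall1 also with RLE (0.0039), DESeq2 (0.0010), the block (1.24), 6 libraries (0.0124), 9 libraries (0.0068) and voom (1.94); Il1b with the block (0.26); and Cx3cr1 with voom (-0.0408). With 1 library left out, log2 changes ran from -0.28 to 0.12 in P2ry12, -0.31 to 0.0506 in Apoe, -0.13 to 0.43 in Cx3cr1, -0.72 to 0.17 in Il1b, -0.35 to 0.038 in Mki67, -0.49 to 0.0677 in Olfml3, -0.61 to 1.61 in Sall1 and -0.64 to 0.0487 in Spi1. The cause was not tested. Genes near 1 CPM, such as Sall1, are limited by depth.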
